A study of Homo sapiens with 22 samples.

Results

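Interferon-stimulated genes are described here by their RNA level in human renal proximal tubule epithelial cells (RPTEC), a tubule cell line immortalized with hTERT, with and without the histone methyltransferase SETD2. The 45 genes were a list of known interferon targets with no threshold on their level in these cells, and 43 of them had a row among the 36859 genes measured. The RNA levels of IFIT5 and LY6E are not analysed here. IFIT1, BST2, DTX3L and RSAD2 did not reach 10 normalized counts in 2 libraries, which left 39 genes tested of 14585.

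RNA was sequenced from 11 groups of 2 libraries each, 22 in all. Cells in medium with 2% serum were wild-type (WT), the SETD2 knockouts KO1 and KO2, WT kept for 72 h in TGF-β at 10 ng/mL, and a group labelled KO2_Rescue, written here as labelled KO2 rescue. Cells in regular medium with 10% serum were Rescue1, Rescue2 and the WT lines WT_eGFP, WT_SOX2, WT_OCT2 and WT_PRRX1. KO1 and KO2 were each a single clone made with Cas9 and a guide to an early exon of SETD2, the rescue lines were single colonies of knockout cells carrying lentiviral full-length SETD2 under blasticidin selection, and the other lines were WT cells with a lentivirus for eGFP (the empty vector) or for the transcription factor named. The knockout clone from which Rescue1 and Rescue2 came is not stated. The labels do not say whether replicates were separate cultures, so the p-values measure the spread between these libraries, which may be technical.

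Interferons act through receptors that activate JAK kinases. Type I and type III interferons lead to a complex that contains STAT2 and IRF9 and binds the interferon-stimulated response element (ISRE), while type II interferon acts through the gamma-activated sequence (GAS). The target genes encode sensors of double-stranded RNA, enzymes that degrade or modify viral RNA, GTPases, membrane proteins that limit virus entry, and the ubiquitin-like modifier ISG15 with its conjugation enzymes. SETD2 trimethylates histone H3 at lysine 36 in transcribed genes. Tubule epithelial cells express interferon receptors and respond to them as most cells do.

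The promoters of 5 members with large changes, chosen after their values were seen, are shown to give the kind of sequence that interferon-activated factors read. Each window was taken from RefSeq on GRCh38.p14 and is written 5′ to 3′ on the strand of the gene, and capitals mark a match to the ISRE letters, GAAA followed by any 2 bases and a second GAAA, on either strand. IFI27, a small membrane protein, is shown at chr14:94110588-94110690 on the plus strand, bases −148 to −46 from the transcription start. IFI6, a relative of IFI27, is shown at chr1:27672236-27672388 on the minus strand, bases −196 to −44. ISG15 is shown at chr1:1013344-1013439 on the plus strand, bases −153 to −58. PLSCR1, a phospholipid scramblase, is shown at chr3:146544637-146544726 on the minus strand, bases −119 to −30. EPSTI1, a protein first described in epithelial cells grown with stroma, is shown at chr13:42992242-42992331 on the minus strand, bases −90 to −1.
IFI27: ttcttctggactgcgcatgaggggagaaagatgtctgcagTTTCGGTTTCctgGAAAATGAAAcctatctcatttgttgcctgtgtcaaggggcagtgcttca
IFI6: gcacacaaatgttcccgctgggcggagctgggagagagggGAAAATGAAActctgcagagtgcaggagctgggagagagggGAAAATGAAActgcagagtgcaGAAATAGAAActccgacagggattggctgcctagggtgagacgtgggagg
ISG15: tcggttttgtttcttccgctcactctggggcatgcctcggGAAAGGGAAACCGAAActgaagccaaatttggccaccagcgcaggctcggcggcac
PLSCR1: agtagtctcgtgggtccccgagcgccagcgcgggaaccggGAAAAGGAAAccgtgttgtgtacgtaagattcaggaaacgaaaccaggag
EPSTI1: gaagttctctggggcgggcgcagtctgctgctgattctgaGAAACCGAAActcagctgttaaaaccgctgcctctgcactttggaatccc

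The ISRE letters were common among the members. Of 36 members with a RefSeq promoter window of 300 bases, from 250 before to 50 after the start, IFIT5 among them, 26 (72.2%) held the ISRE letters on either strand, against 4.38% of 27305 genes. GAS was searched as TTCNNNGAA, which reads the same on both strands, and was held by 10 of the 36 (27.8%), against 9.38% of all genes. The 40 ISRE matches in the first listed window of 24 members began between 164 bases before and 12 after the start, with a median of −83.5. In those first windows ISRE and GAS matches shared bases in BST2, EPSTI1, IFI27 and IFITM1. The letters of ISRE were not in the windows of OAS1, ADAR, UBE2L6, HERC6, CMPK2, SAMD9L, IFI16, SP100, IFI35 and XAF1. OAS2, OASL, IFIT2, IFITM2, LY6E, MX2, GBP2, USP18 and TRIM22 were not matched in the promoter table.

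**Figure D1:**
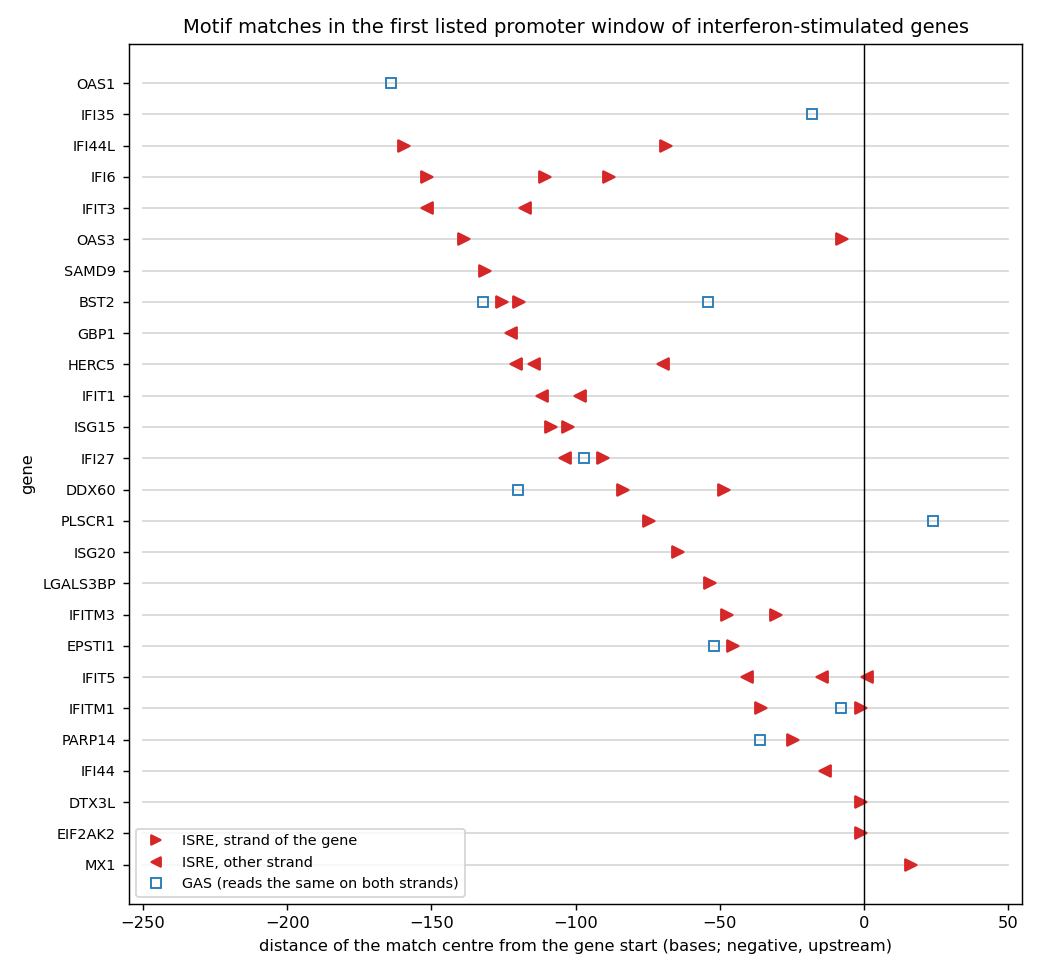
Centre of each ISRE match (red triangles, pointing right on the strand of the gene and left on the other) and GAS match (open blue squares) in the first listed promoter window of the members, with the distance from the transcription start in bases on the horizontal axis. The 40 ISRE matches have a median first base of −83.5, and the matches of IFI27, IFI6 and ISG15 lie upstream of the start.

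The libraries held 11674491 to 16758645 normalized counts, and steps between low values put them at about 7700000 to 19000000 reads. SETD2 was at 1046 and 1129.98 in KO1, 1049.8 and 1052 in KO2, 1852 and 2061 in WT and 9764 to 10445 in the 4 rescue libraries. The labelled KO2 rescue had 834 and 819.6, below KO2, so SETD2 goes against that label. Of the epithelial markers PAX8 was at 1535 to 6561 and EPCAM at 218 to 3050.0, while LRP2, a defining receptor of the proximal tubule, did not pass 2.3 in any library. CDH1 was at 0 in 8 of 22 libraries and at most 58.0. The highest values in this list were of KRT8, at 3952 to 25190, and KRT19, at 5686 to 18369, which weigh most in its sum. The 12 epithelial markers summed to 39677 to 44170 in WT, 32238 to 33402 with TGF-β, 19325 to 20520 in KO1, 27024 to 28331 in KO2 and 41812 to 45878 in rescue. Their sum was 27118 to 28809 in WT eGFP, which overlapped KO2, and 45301 to 46245 in the labelled KO2 rescue, above WT. In KO1 3 of 11 tested were higher (27.3%, against 12.0% of all genes) and 4 lower (36.4%, against 13.1%). In KO2 2 were higher and 2 lower (18.2% each, against 9.02% and 7.29%). None was called with TGF-β, against 7.84% of all genes. In rescue against KO 1 was higher (9.09%, against 11.3%) and 2 lower (18.2%, against 11.9%). Of 7 leukocyte markers CD3E and TYROBP were at 0 in all 22 libraries and only CD14 and CSF1R were tested. CSF1R was at 4.37 to 242 and higher with TGF-β (log2 change 3.15, adjusted p = 0.0206), and CD14, at most 13.2, was higher in KO1, with TGF-β and in WT eGFP against WT. The 5 endothelial markers summed to 4.99 to 40.7 in WT, 5.68 to 5.98 with TGF-β and 126 to 145 in KO1. Their sum was 158 to 172 in KO2 and 21.1 to 153 in rescue. KDR rose at least 37.7-fold in KO1 and 45.3-fold in KO2, and fell in rescue against KO (−4.09, adjusted p = 3.08e-05). CDH5 moved the other way, from 0 in each KO library to 5.75 to 83.8 in rescue (4.98, adjusted p = 0.000745). That value depends on the pseudocount. TIE1 passed in KO2 against WT (3.13, adjusted p = 0.0443), with WT under the floor of 3, and did not pass in KO1. The summed fibroblast markers, mostly decorin (DCN) in KO1 and KO2 and mostly COL1A1 with TGF-β, were 831 to 12437 in WT, 46389 to 47809 with TGF-β, 223367 to 236448 in KO1, 98938 to 102552 in KO2 and 818 to 1524 in rescue, and so moved with the contrasts of KO, TGF-β and rescue. Of these 7 fibroblast markers 3 were higher in KO1, 3 in KO2 and 3 with TGF-β (42.9% each, against 12.0%, 9.02% and 3.58% of all genes). In KO1 1 was lower (14.3%, near the 13.1% of all genes), and 4 were lower in rescue against KO (57.1%, against 11.9%). The part of these marker lists in the results was not tested. WT replicate 1 stood apart in COL1A1, at 11919 against 532 in WT replicate 2, and calls against WT are therefore given with and without it.

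In KO1 against WT, the question being what loss of SETD2 does in these cells, 17 of the 39 interferon-stimulated genes tested passed a test with limma (adjusted p under 0.05 and a change beyond 1 on the log2 scale), 15 of them higher and 2 lower. That is 43.6% of the members tested, against 25.0% of all genes called in either direction. The higher share was 38.5% of members against 12.0% of all genes, and the lower share 5.13% against 13.1%. The median log2 change of the members was 0.50 and that of all genes 0. IFI27, MX2, OAS2, OASL, IFI6, ISG15, CMPK2, IFI44, MX1, PLSCR1, OAS1, USP18, ISG20, LGALS3BP and HERC6 rose, and IFIT2 and IFITM2 fell. All changes are on the log2(normalized count + 1) scale, which understates the change of low genes, and in RNA from bulk cultures fewer cells with a transcript and less RNA per cell cannot be told apart. Without WT replicate 1 the count was 14, and in a fit of just the KO1 and WT libraries it was 10. Scaled to equal library totals, where the median of all genes moved by −0.39, 10 members were higher and 3 lower.

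In KO2 against WT, 10 of the 39 passed, 7 higher and 3 lower. This was 25.6% of the members against 16.3% of all genes, and for those higher 17.9% against 9.02%. The lower share, 7.69%, was near the 7.29% of all genes. The median of the members was 0.47 on the log2 scale and that of all genes 0.0031. IFI27, OAS2, PLSCR1, IFI6, ISG15, GBP2 and TRIM22 rose, and XAF1, IFIT2 and IFITM2 fell. Leaving out WT replicate 1 gave 9 calls and leaving out WT replicate 2 gave 6, and with equal library totals 4 were higher and 4 lower.

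The members called in both clones were IFI27, IFI6, ISG15, OAS2 and PLSCR1, which were higher, and IFIT2 and IFITM2, which were lower. The 5 higher in both were 12.8% of the 39 members tested, against 6.95% of all genes called higher in both. IFIT2 and IFITM2 were 5.13% of the members, near the 5.73% of all genes called lower in both. The clones share the WT libraries, so that the counts are not independent. The clones also differed from each other. In KO2 against KO1, 6 of 39 members passed (15.4%, against 6.97% of all genes), with OASL, IFI27, OAS1, ISG15 and LGALS3BP lower in KO2 and IFIT2 higher (1 of 39, or 2.56%, against 4.49% of all genes). The share lower in KO2 was 12.8% of the members against 2.48% of all genes, and the median of the members was −0.58 on the log2 scale. Without KO2 replicate 2 the count was 2, and in a fit of just the KO1 and KO2 libraries it was 0. On the deposited log2 scale it was 0, with 16 past the adjusted p. The KO1 duplicates were over 2-fold apart in 10 of the 39 members, with 6 higher in replicate 2 and 4 in replicate 1.

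**Figure D2:**
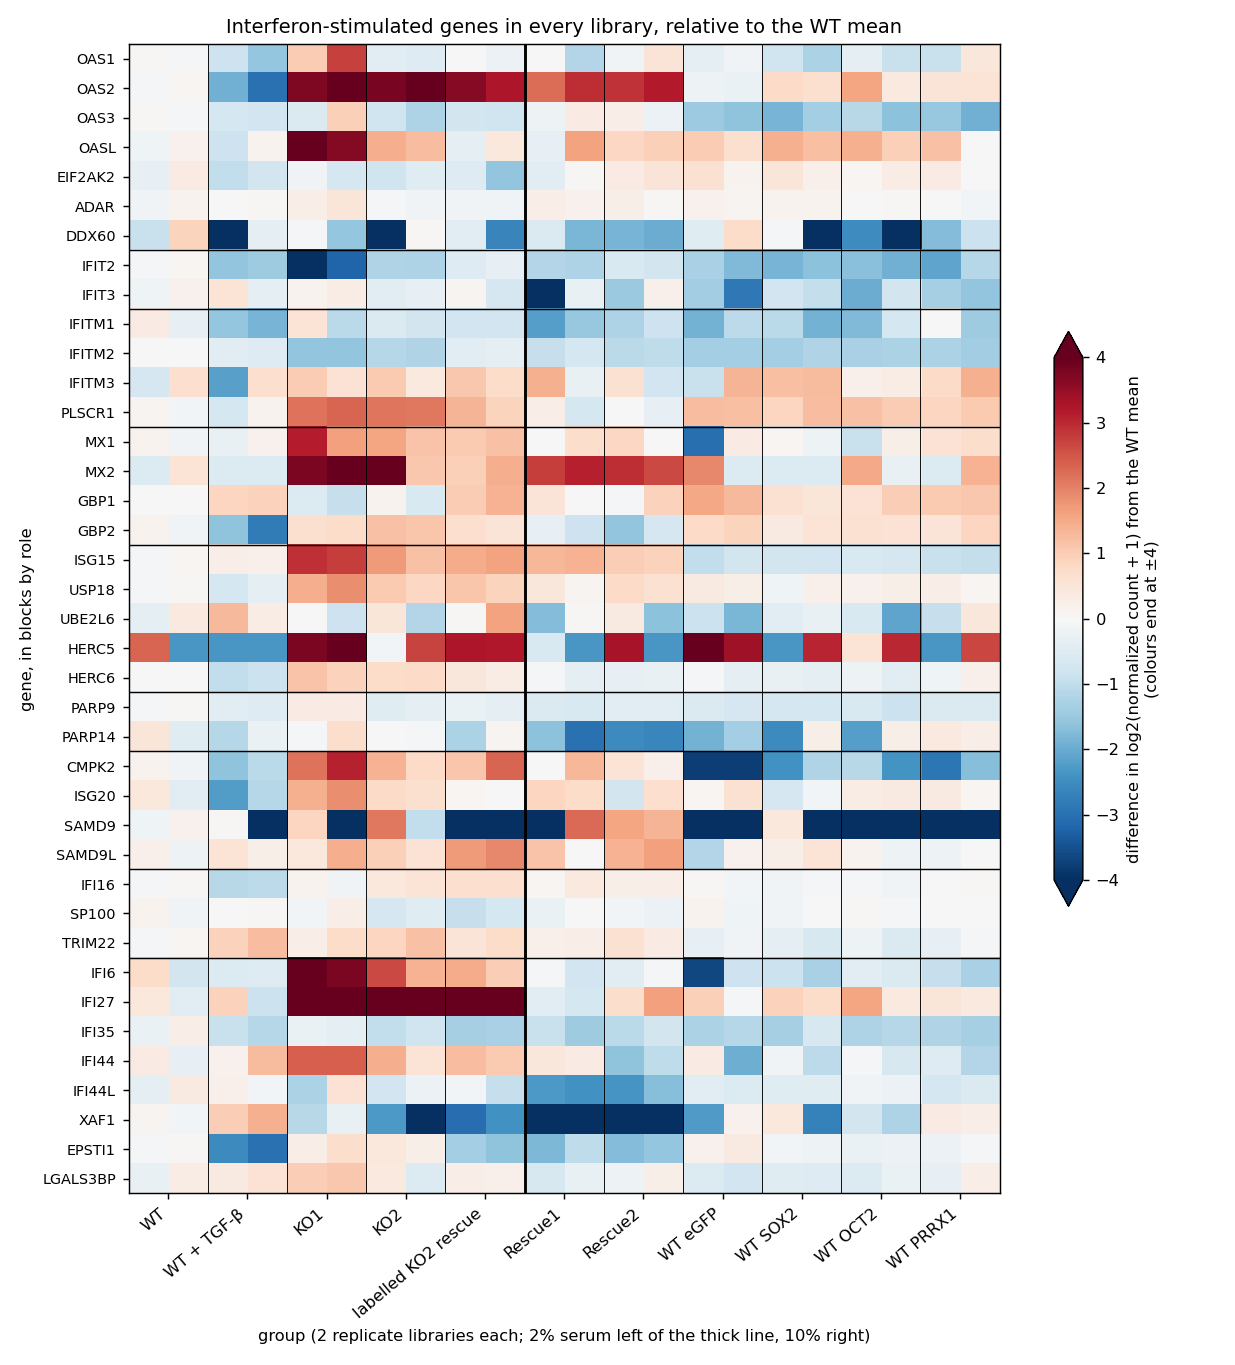
Difference of each member in each of 22 libraries from the WT mean, on the log2(normalized count + 1) scale with colours ending at ±4, members in rows and libraries in columns, and a thick line between 2% and 10% serum. IFI27, OAS2 and IFI6 are above WT in all 4 KO libraries, and IFIT2 is below WT there.

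**Figure D3:**
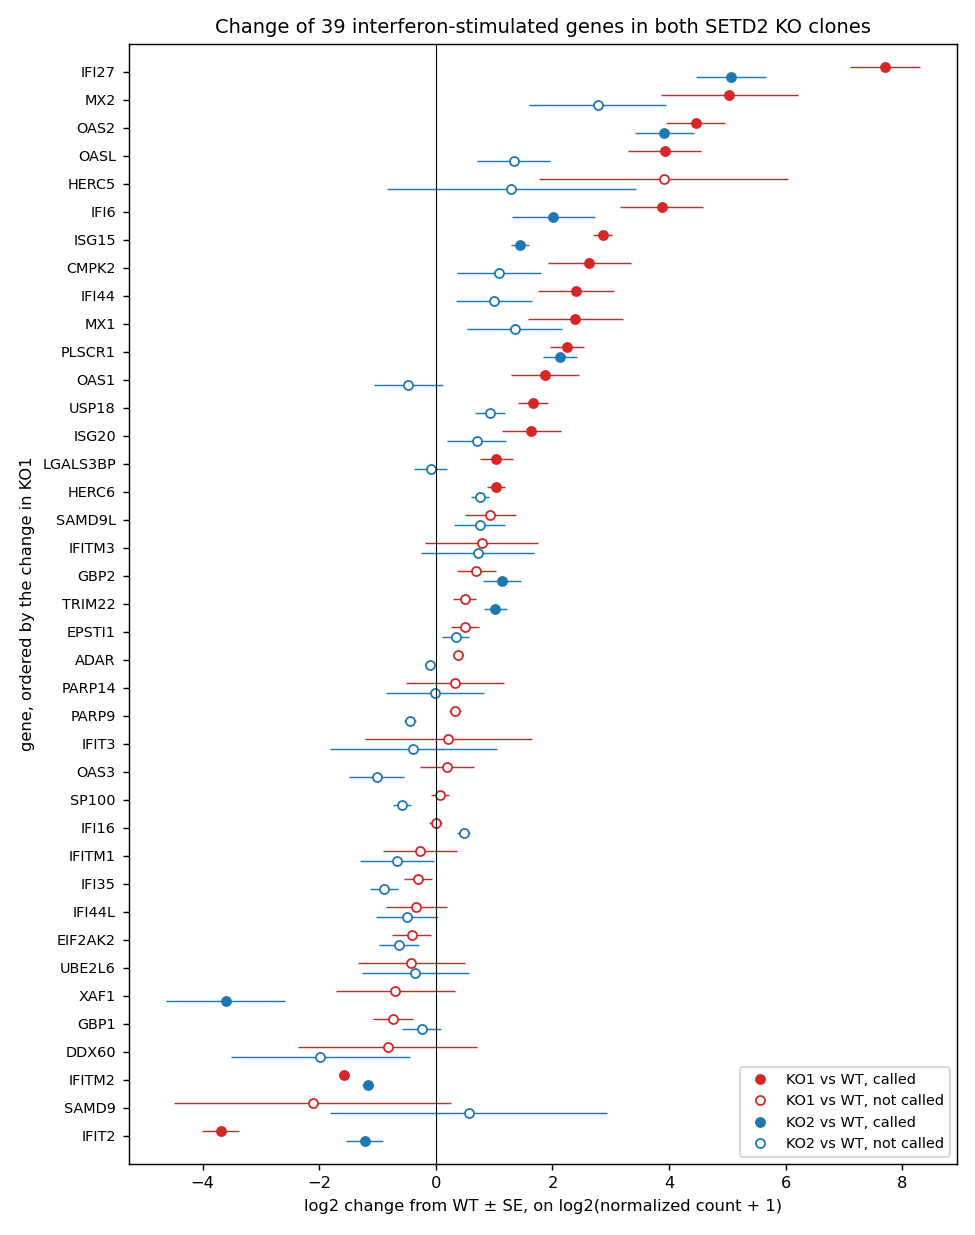
Log2 change from WT (horizontal axis, on log2(normalized count + 1), bars are SE) of the 39 tested members, 1 row each in the order of the change in KO1, with KO1 and KO2 in separate colours, filled points called and open points not called. IFI27 lies at 7.70 in KO1 and 5.06 in KO2 and IFIT2 at −3.69 and −1.22, and both comparisons share the WT libraries.

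Against WT, TGF-β, which drives an epithelial to mesenchymal transition in these cells, gave 8 calls of 39, 1 higher and 7 lower. The share was 20.5% against 7.84% of all genes, for those lower 17.9% against 4.26%, and for the 1 higher 2.56% against 3.58%. The members' median was −0.52 on the log2 scale, with all genes at 2e-04. EPSTI1, OAS2, GBP2, ISG20, IFIT2, IFI16 and IFI35 fell, and TRIM22 rose. Without WT replicate 1 the calls were 6, all lower. With equal library totals they were 10, all lower. In a fit of just the TGF-β and WT libraries none of the 39 passed, with 10 past the fold at an unadjusted p under 0.05. On the deposited log2 scale, which compresses low values, none passed the fold and 9 passed the adjusted p.

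KO (mean of KO1 and KO2) was then compared with TGF-β directly, since both conditions are compared with the same WT. Of 39 members 16 were higher in KO and 2, GBP1 and XAF1, were lower. The share called was 46.2% against 20.2% of all genes, for those higher 41.0% against 10.3%, and for those lower 5.13% against 9.83%. The median was 1.24 on the log2 scale, with all genes at −0.02.

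Rescue (mean of Rescue1 and Rescue2) against KO (mean of KO1 and KO2) asks whether SETD2 returned to knockout cells changes these genes, but serum was 10% in rescue and 2% in KO, so that SETD2, serum and transduction cannot be told apart. Of 39 members 14 were lower in rescue and only IFIT2 higher. The share lower was 35.9% against 11.9% of all genes, the share higher 2.56% against 11.3%, and the share called 38.5% against 23.3%. The median was −0.90 on the log2 scale, with all genes at 6e-04. The genes that fell were IFI27, IFI6, PARP14, XAF1, PLSCR1, IFI44, EPSTI1, OASL, IFI44L, GBP2, MX1, OAS2, CMPK2 and HERC6. Against KO2 alone 8 members passed, all lower, and with equal library totals, where the median of all genes moved by 0.37, 10 were lower and 3 higher. The comparison shares the KO libraries with those against WT. Between Rescue1 and Rescue2 no member passed by limma (0 of 39, with 3 past the fold at an unadjusted p under 0.05, and 0.994% of all genes called).

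**Figure D4:**
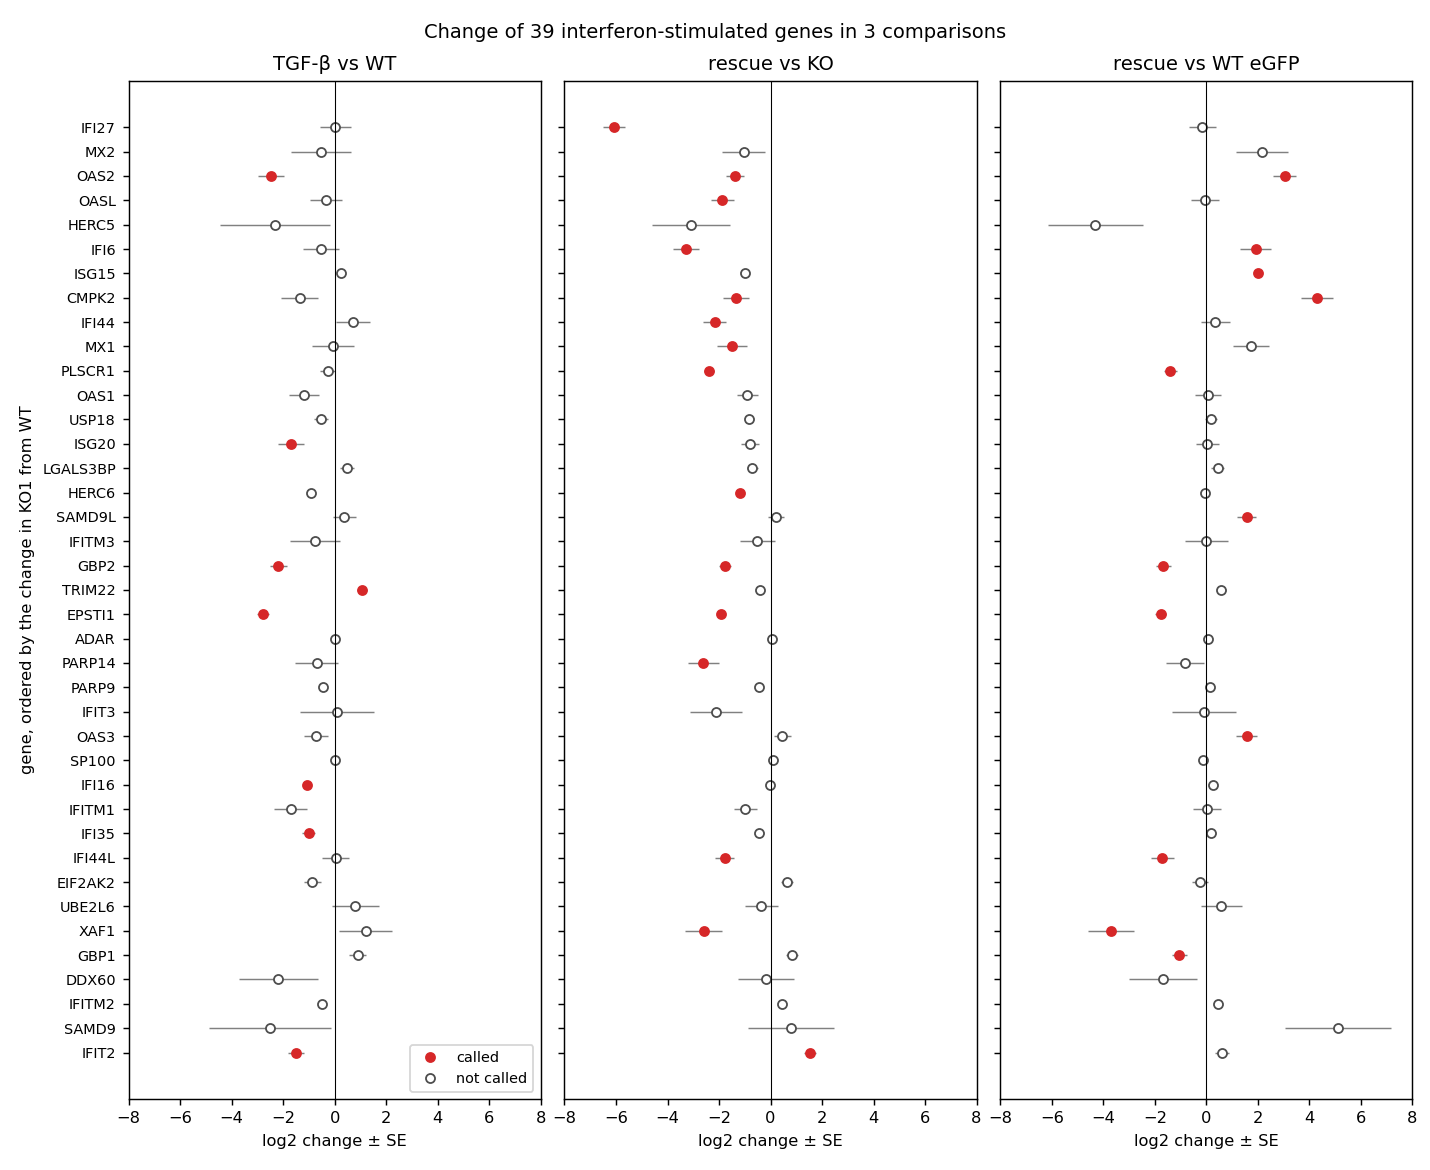
Log2 change (horizontal axes, bars are SE) of the 39 tested members, 1 row each in the order of the change in KO1, in 3 panels for TGF-β against WT, rescue against KO and rescue against WT eGFP, with filled red points called and open points not called. In rescue against KO 14 members are called lower and IFIT2 higher, and with TGF-β 7 are called lower and TRIM22 higher.

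Rescue was also set against WT eGFP, both in 10% serum and both transduced. The rescue lines were single colonies of knockout cells under blasticidin, while WT eGFP cells were selected in bulk with puromycin. In this comparison SETD2, clone and selection drug cannot be told apart. Here 12 of 39 members passed, 6 higher and 6 lower (30.8%, against 13.1% of all genes), and the members' median was 0.07. CMPK2, OAS2, ISG15, IFI6, OAS3 and SAMD9L were higher in rescue (15.4%, against 6.47% of all genes), and XAF1, EPSTI1, IFI44L, GBP2, PLSCR1 and GBP1 were lower (15.4%, against 6.66%). The count was 7 without WT eGFP replicate 1. The labelled KO2 rescue, in 2% serum like KO2, differed from KO2 in 3 members (7.69%, against 4.17% of all genes), EPSTI1 and PLSCR1 lower (5.13%, against 2.52%) and GBP1 higher (2.56%, against 1.65%), and in 1 of them without KO2 replicate 2 or without its own replicate 2. With equal totals or with quantile normalization, 1 was higher and 1 lower.

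WT eGFP against WT, in which the virus, selection and serum change together, gave 8 calls (20.5%, against 12.7% of all genes). CMPK2, IFI6, IFIT2, OAS3, IFITM2 and IFI35 were lower (15.4%, against 6.24%), and PLSCR1 and GBP1 were higher (5.13%, against 6.49%). Without WT replicate 1 the calls were 6, and in a fit of just the WT eGFP and WT libraries 4. Among the transduced WT lines no member passed by limma. SOX2, OCT2 and PRRX1 against eGFP gave 1, 4 and 2 members past the fold at an unadjusted p under 0.05, and 0.0206%, 0.0343% and 0.0411% of all genes called. PRRX1 gave 1 call without WT eGFP replicate 2.

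The small membrane proteins IFI27 and IFI6 are among the genes most readily induced by type I interferon. The gene of IFI27 is at chr14:94104836-94116695 on the plus strand (GRCh38, GENCODE 44). IFI27 had 3259.8 and 2065 normalized counts in KO1, 535 and 321 in KO2, 15.8 and 8.302 in WT and 22.7 and 5.87 in TGF-β cultures. For IFI27, the labelled KO2 rescue had 1596 and 1246, Rescue1 8.35 and 6.64 and Rescue2 19.3 and 38.01. IFI27 was at 23.3 and 11.2 in WT eGFP, 22.7 and 19.6 in WT SOX2, 36.1 and 15.5 in WT OCT2 and 16.5 and 15.4 in WT PRRX1. The KO1 libraries were the highest of all 22, the KO2 and labelled KO2 rescue libraries came next, and no other library reached 40. Each change below is a log2 change with its standard error (SE) and a p-value from limma adjusted over all genes, and a range after a lost call spans the values with each library left out in turn. The log2 change of IFI27 was 7.70 (SE 0.60, adjusted p = 8.86e-08) in KO1 and 5.06 (SE 0.60, adjusted p = 1.26e-05) in KO2. KO2 was lower than KO1, with a change of −2.64 (SE 0.60, adjusted p = 0.00768). In rescue against KO the change was −6.07 (SE 0.42, adjusted p = 2.05e-08), and in the labelled KO2 rescue against KO2 it was 1.76 (SE 0.60, adjusted p = 0.0818), which did not pass. The call of IFI27 was lost in KO2 against KO1 without KO2 replicate 2 (−3.01 to −2.28).

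The gene of IFI6 is at chr1:27666064-27672212 on the minus strand, and its window holds 3 ISRE matches. IFI6 had 1019 and 858 normalized counts in KO1, 397 and 166 in KO2, 104 and 37.7 in WT and 42.6 and 44.1 in TGF-β cultures. For IFI6, the labelled KO2 rescue had 177 and 125, Rescue1 61.2 and 36.4 and Rescue2 46.3 and 58.9. IFI6 was at 4.07 and 35.1 in WT eGFP, 34.5 and 24.7 in WT SOX2, 45.9 and 41.9 in WT OCT2 and 32.8 and 24.9 in WT PRRX1. The 4 KO libraries lay above both WT libraries, with KO1 above KO2, and the 4 rescue libraries lay within or near the WT range. IFI6 changed by 3.88 (SE 0.71, adjusted p = 0.000482) in KO1, 2.02 (SE 0.71, adjusted p = 0.0464) in KO2 and −3.28 (SE 0.50, adjusted p = 8.05e-05) in rescue against KO. WT eGFP replicate 1 stood low, and against WT eGFP rescue differed by 1.91 (SE 0.62, adjusted p = 0.03), while WT eGFP differed from WT by −2.24 (SE 0.71, adjusted p = 0.0309). The call of IFI6 was lost in KO2 against WT without WT replicate 2 or KO2 replicate 1 (1.29 to 2.74), and in rescue against WT eGFP without Rescue1 replicate 1, Rescue2 replicate 2 or WT eGFP replicate 1 (0.49 to 3.32), and in WT eGFP against WT without WT replicate 1 or WT eGFP replicate 1 (−3.65 to −0.82).

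ISG15 encodes the ubiquitin-like protein that is joined to other proteins in interferon-treated cells, and its gene is at chr1:1001138-1014540 on the plus strand. ISG15 had 1831 and 1643 normalized counts in KO1, 779 and 538 in KO2, 227 and 249.6 in WT and 286 and 274 in TGF-β cultures. For ISG15, the labelled KO2 rescue had 664 and 727, Rescue1 604 and 625 and Rescue2 476 and 451. ISG15 was at 120.4 and 142 in WT eGFP, 143 and 140.04 in WT SOX2, 156 and 151 in WT OCT2 and 127 and 122 in WT PRRX1. KO1 was highest and KO2 second together with the labelled KO2 rescue and rescue libraries, and the transduced WT lines were lowest, with no overlap between those lines and WT. ISG15 rose by 2.86 (SE 0.16, adjusted p = 1.67e-09) in KO1 and 1.44 (SE 0.16, adjusted p = 5.1e-06) in KO2, and KO2 differed from KO1 by −1.42 (SE 0.16, adjusted p = 2.33e-05). With TGF-β it changed by 0.23 (SE 0.16, adjusted p = 0.388). Rescue was −0.99 (SE 0.11, adjusted p = 3.25e-06) against KO, below the fold asked for, and 2.02 (SE 0.13, adjusted p = 4.45e-08) against WT eGFP.

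USP18 removes ISG15 and also restrains the type I receptor. USP18 had 163 and 216 normalized counts in KO1, 121 and 104 in KO2, 57.2 and 59.95 in WT and 35.9 and 45.5 in TGF-β cultures. For USP18, the labelled KO2 rescue had 126 and 109, Rescue1 80.1 and 63.1 and Rescue2 99.4 and 88.98. USP18 was at 75.7 and 69.3 in WT eGFP, 51.6 and 67.5 in WT SOX2, 66.00 and 68.97 in WT OCT2 and 71.4 and 62.04 in WT PRRX1. Each KO1 library was above each library of every other group, and USP18 rose by 1.66 (SE 0.26, adjusted p = 0.000127) in KO1 and changed by 0.93 (SE 0.26, adjusted p = 0.0147) in KO2, where the change did not pass 1. HERC6 is a relative of HERC5, the main ligase for ISG15 in human cells. HERC6 had 1082 and 946 normalized counts in KO1, 829 and 843 in KO2, 501 and 486 in WT and 251 and 273 in TGF-β cultures. For HERC6, the labelled KO2 rescue had 672 and 604, Rescue1 465 and 375 and Rescue2 397 and 403. HERC6 was at 466 and 383 in WT eGFP, 403 and 385 in WT SOX2, 427 and 364 in WT OCT2 and 443 and 566 in WT PRRX1. KO1 was highest, KO2 next, and TGF-β lowest. HERC6 rose by 1.03 (SE 0.15, adjusted p = 5.16e-05) in KO1, and changed by 0.76 (SE 0.15, adjusted p = 0.00116) in KO2, −0.91 (SE 0.15, adjusted p = 0.00051) with TGF-β, and by −1.17 (SE 0.10, adjusted p = 3.27e-07) in rescue against KO. The call of HERC6 was lost in KO1 against WT without KO1 replicate 1 (0.94 to 1.13).

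HERC5 and UBE2L6, the conjugating enzyme of ISG15, passed no test and varied widely between duplicates. HERC5 had 67.2 and 81.3 normalized counts in KO1, 3.59 and 31.6 in KO2, 23.95 and 0 in WT and 0 and 0 in TGF-β cultures. For HERC5, the labelled KO2 rescue had 46.2 and 45.2, Rescue1 2.25 and 0 and Rescue2 47.9 and 0. HERC5 was at 94.6 and 51.5 in WT eGFP, 0 and 40.7 in WT SOX2, 6.36 and 39.3 in WT OCT2 and 0 and 30.7 in WT PRRX1. HERC5 was at 0 in 7 libraries of 6 groups, its duplicates were far apart in most groups, and its change in KO1 was 3.91 (SE 2.13, adjusted p = 0.165). UBE2L6 had 22.3 and 12.2 normalized counts in KO1, 31.8 and 9.31 in KO2, 16.98 and 29.7 in WT and 56.8 and 27.8 in TGF-β cultures. For UBE2L6, the labelled KO2 rescue had 23.5 and 71.2, Rescue1 6.05 and 23.1 and Rescue2 29.1 and 6.49. UBE2L6 was at 12.1 and 5.68 in WT eGFP, 16.7 and 18.2 in WT SOX2, 14.5 and 4.42 in WT OCT2 and 11.3 and 31.2 in WT PRRX1. UBE2L6 lay between 4.42 and 71.2 with duplicates of most groups far apart, and its change was −0.42 (SE 0.92, adjusted p = 0.756) in KO1. Of the 5 genes of ISG15 conjugation 3 were higher in KO1 (60%, against 12.0% of all genes) and 1 in KO2 (20%, against 9.02%), none was lower in either, and none passed with TGF-β, where 7.84% of all genes did.

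The oligoadenylate synthetases make 2′,5′-linked oligoadenylate on double-stranded RNA, which activates RNase L. OAS1, OAS3 and OAS2 lie next to each other on chromosome 12, at 112905856-112933219, 112938051-112976460 and 112978395-113011723 on the plus strand. OAS2 had 244 and 664 normalized counts in KO1, 252 and 304 in KO2, 16.5 and 18.3 in WT and 3.84 and 1.31 in TGF-β cultures. For OAS2, the labelled KO2 rescue had 231 and 172, Rescue1 85.8 and 140.1 and Rescue2 136 and 167. OAS2 was at 15.1 and 14.4 in WT eGFP, 30.4 and 27.9 in WT SOX2, 54.3 and 23.1 in WT OCT2 and 25.4 and 25.7 in WT PRRX1. The 4 KO libraries were the highest, the labelled KO2 rescue and rescue libraries came next without overlap with any other group, and TGF-β was lowest. OAS2 rose by 4.46 (SE 0.51, adjusted p = 5.25e-06) in KO1 and 3.92 (SE 0.51, adjusted p = 3.05e-05) in KO2, and changed by −2.46 (SE 0.51, adjusted p = 0.00337) with TGF-β. Rescue was lower than KO, at −1.37 (SE 0.36, adjusted p = 0.00593), and above WT eGFP, at 3.04 (SE 0.44, adjusted p = 0.000101).

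OASL lacks the synthetase activity and binds the sensor RIG-I. OASL had 204 and 142 normalized counts in KO1, 29.6 and 25.4 in KO2, 8.88 and 11.8 in WT and 5.36 and 11.5 in TGF-β cultures. For OASL, the labelled KO2 rescue had 7.77 and 14.1, Rescue1 8.01 and 33.3 and Rescue2 18.8 and 20.6. OASL was at 21.96 and 16.5 in WT eGFP, 29.3 and 24.8 in WT SOX2, 29.1 and 20.96 in WT OCT2 and 24.4 and 10.4 in WT PRRX1. The KO1 libraries were the highest and did not overlap any other group, and KO2 lay within the range of rescue. OASL rose by 3.93 (SE 0.63, adjusted p = 0.000138) in KO1 and changed by 1.34 (SE 0.63, adjusted p = 0.132) in KO2, and the clones differed by −2.59 (SE 0.63, adjusted p = 0.0113). In rescue against KO the change was −1.87 (SE 0.44, adjusted p = 0.00295). The call of OASL was lost in KO2 against KO1 without KO2 replicate 2 (−2.85 to −2.33).

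OAS1 and OAS3 were called in fewer comparisons than OAS2. OAS1 had 104 and 342 normalized counts in KO1, 37.8 and 35.1 in KO2, 52.6 and 49.3 in WT and 28.2 and 16.7 in TGF-β cultures. For OAS1, the labelled KO2 rescue had 50.4 and 42.95, Rescue1 50.6 and 22.1 and Rescue2 45.7 and 73.5. OAS1 was at 38.3 and 46.3 in WT eGFP, 28.7 and 20.7 in WT SOX2, 39.7 and 26.9 in WT OCT2 and 27.01 and 69.7 in WT PRRX1. The KO1 duplicates were more than 3-fold apart, and KO2 was below WT. OAS1 rose by 1.87 (SE 0.59, adjusted p = 0.0197) in KO1, with KO2 against WT at −0.47 (SE 0.59, adjusted p = 0.615) and KO2 against KO1 at −2.35 (SE 0.59, adjusted p = 0.0136). The call of OAS1 was lost in KO1 against WT without either WT library or KO1 replicate 2 (1.02 to 2.72), and in KO2 against KO1 without KO1 replicate 2 or either KO2 library (−3.20 to −1.49), and in KO against TGF-β without TGF-β replicate 2 (1.46 to 2.32). OAS3 had 44.8 and 131 normalized counts in KO1, 38.2 and 27.9 in KO2, 68.8 and 65.3 in WT and 40.9 and 38.7 in TGF-β cultures. For OAS3, the labelled KO2 rescue had 39.99 and 37.98, Rescue1 58.1 and 84.9 and Rescue2 80.9 and 56.5. OAS3 was at 23.9 and 21.5 in WT eGFP, 17.9 and 25.5 in WT SOX2, 30.6 and 20.9 in WT OCT2 and 22.98 and 16.9 in WT PRRX1. OAS3 was higher in WT and rescue than in the transduced WT lines without overlap, and its KO1 duplicates lay on either side of WT. Its change was 0.19 (SE 0.47, adjusted p = 0.783) in KO1, −1.52 (SE 0.47, adjusted p = 0.0257) in WT eGFP against WT and 1.56 (SE 0.41, adjusted p = 0.00881) in rescue against WT eGFP. The call of OAS3 was lost in rescue against WT eGFP without either WT eGFP library (1.43 to 1.70), and in WT eGFP against WT without either WT library or either WT eGFP library (−1.60 to −1.45).

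The other sensors of double-stranded RNA did not pass in any comparison. ADAR, the adenosine deaminase with an interferon-inducible isoform, ranged from 5451 to 8459 normalized counts over all 22 libraries. EIF2AK2, the kinase PKR, ranged from 69.6 to 321, and the helicase DDX60 from 0 to 28.6. Of the 7 genes of this role 3 were higher in KO1 (42.9%, against 12.0% of all genes) and 1, OAS2, in KO2 (14.3%, against 9.02%). With TGF-β none was higher and OAS2 was lower (14.3%, against 4.26%).

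IFIT proteins bind foreign RNA by its cap or end. IFIT2, at chr10:89283694-89309271 on the plus strand, moved against the members above. IFIT2 had 21.5 and 43.3 normalized counts in KO1, 175 and 173 in KO2, 389 and 426 in WT and 136 and 150.5 in TGF-β cultures. For IFIT2, the labelled KO2 rescue had 286 and 321, Rescue1 181 and 174 and Rescue2 265 and 245. IFIT2 was at 164 and 119 in WT eGFP, 112 and 129 in WT SOX2, 128 and 106 in WT OCT2 and 93.3 and 185 in WT PRRX1. WT was highest, KO1 lowest, and KO2, TGF-β and the transduced WT lines lay between. IFIT2 changed by −3.69 (SE 0.32, adjusted p = 3.02e-07) in KO1, −1.22 (SE 0.32, adjusted p = 0.00935) in KO2 and −1.50 (SE 0.32, adjusted p = 0.00421) with TGF-β, and KO2 was above KO1, at 2.47 (SE 0.32, adjusted p = 0.000103). It was 1.52 (SE 0.23, adjusted p = 6.1e-05) in rescue against KO, and −1.53 (SE 0.32, adjusted p = 0.00235) in WT eGFP against WT. Against KO2 alone IFIT2 was not called in rescue, and Rescue1, at 181 and 174, was near KO2, at 175 and 173. The call of IFIT2 was lost in KO2 against WT without WT replicate 2 (−1.29 to −1.16). IFIT3 ranged from 0 to 226 and passed no test, and IFIT1 was at 0 in 15 of 22 libraries with 13.6 at most.

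IFITM proteins stop enveloped viruses at the endosome and plasma membrane. IFITM2 is at chr11:303655-309397 on the plus strand. IFITM2 had 649 and 637 normalized counts in KO1, 874 and 831 in KO2, 1896 and 1943 in WT and 1404 and 1338 in TGF-β cultures. For IFITM2, the labelled KO2 rescue had 1399.7 and 1484, Rescue1 1014 and 1179.8 and Rescue2 901 and 942. IFITM2 was at 739.9 and 743 in WT eGFP, 754 and 831 in WT SOX2, 776 and 804 in WT OCT2 and 793 and 724 in WT PRRX1. WT was highest, the labelled KO2 rescue and TGF-β next, and KO1 lowest, with no overlap between WT and any other group. IFITM2 changed by −1.58 (SE 0.088, adjusted p = 2.24e-09) in KO1, −1.17 (SE 0.088, adjusted p = 1.08e-07) in KO2, −0.49 (SE 0.088, adjusted p = 0.00123) with TGF-β and −1.37 (SE 0.088, adjusted p = 5.13e-08) in WT eGFP against WT. IFITM1, IFITM2 and IFITM3 are closely related genes, and IFITM3 was at 0 to 11.1, so that the split of reads among them is uncertain. IFITM1 ranged from 11.2 to 80.9 and BST2, the tether of budding virus, from 0 to 10.9.

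PLSCR1, at chr3:146515180-146544856 on the minus strand, moves phospholipids across membranes and also binds DNA and viral proteins. PLSCR1 had 1202 and 1324 normalized counts in KO1, 1175 and 1153 in KO2, 285 and 246 in WT and 163 and 295 in TGF-β cultures. For PLSCR1, the labelled KO2 rescue had 675 and 490.4, Rescue1 317 and 161 and Rescue2 265 and 211. PLSCR1 was at 623 and 606 in WT eGFP, 482 and 625 in WT SOX2, 593 and 534 in WT OCT2 and 482 and 549.5 in WT PRRX1. The 4 KO libraries were the highest, with a gap to the labelled KO2 rescue and the transduced WT lines, and rescue was at the level of WT. PLSCR1 rose by 2.25 (SE 0.29, adjusted p = 1.96e-05) in KO1 and 2.13 (SE 0.29, adjusted p = 5.11e-05) in KO2 and changed by −2.38 (SE 0.21, adjusted p = 2.24e-07) in rescue against KO. It was −1.02 (SE 0.29, adjusted p = 0.0389) in the labelled KO2 rescue against KO2, 1.21 (SE 0.29, adjusted p = 0.00634) in WT eGFP against WT and −1.41 (SE 0.25, adjusted p = 0.000641) in rescue against WT eGFP. The call of PLSCR1 was lost in the labelled KO2 rescue against KO2 without either KO2 library or either labelled KO2 rescue library (−1.25 to −0.79). Its 7 calls were the most of any member over 13 comparisons.

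**Figure D5:**
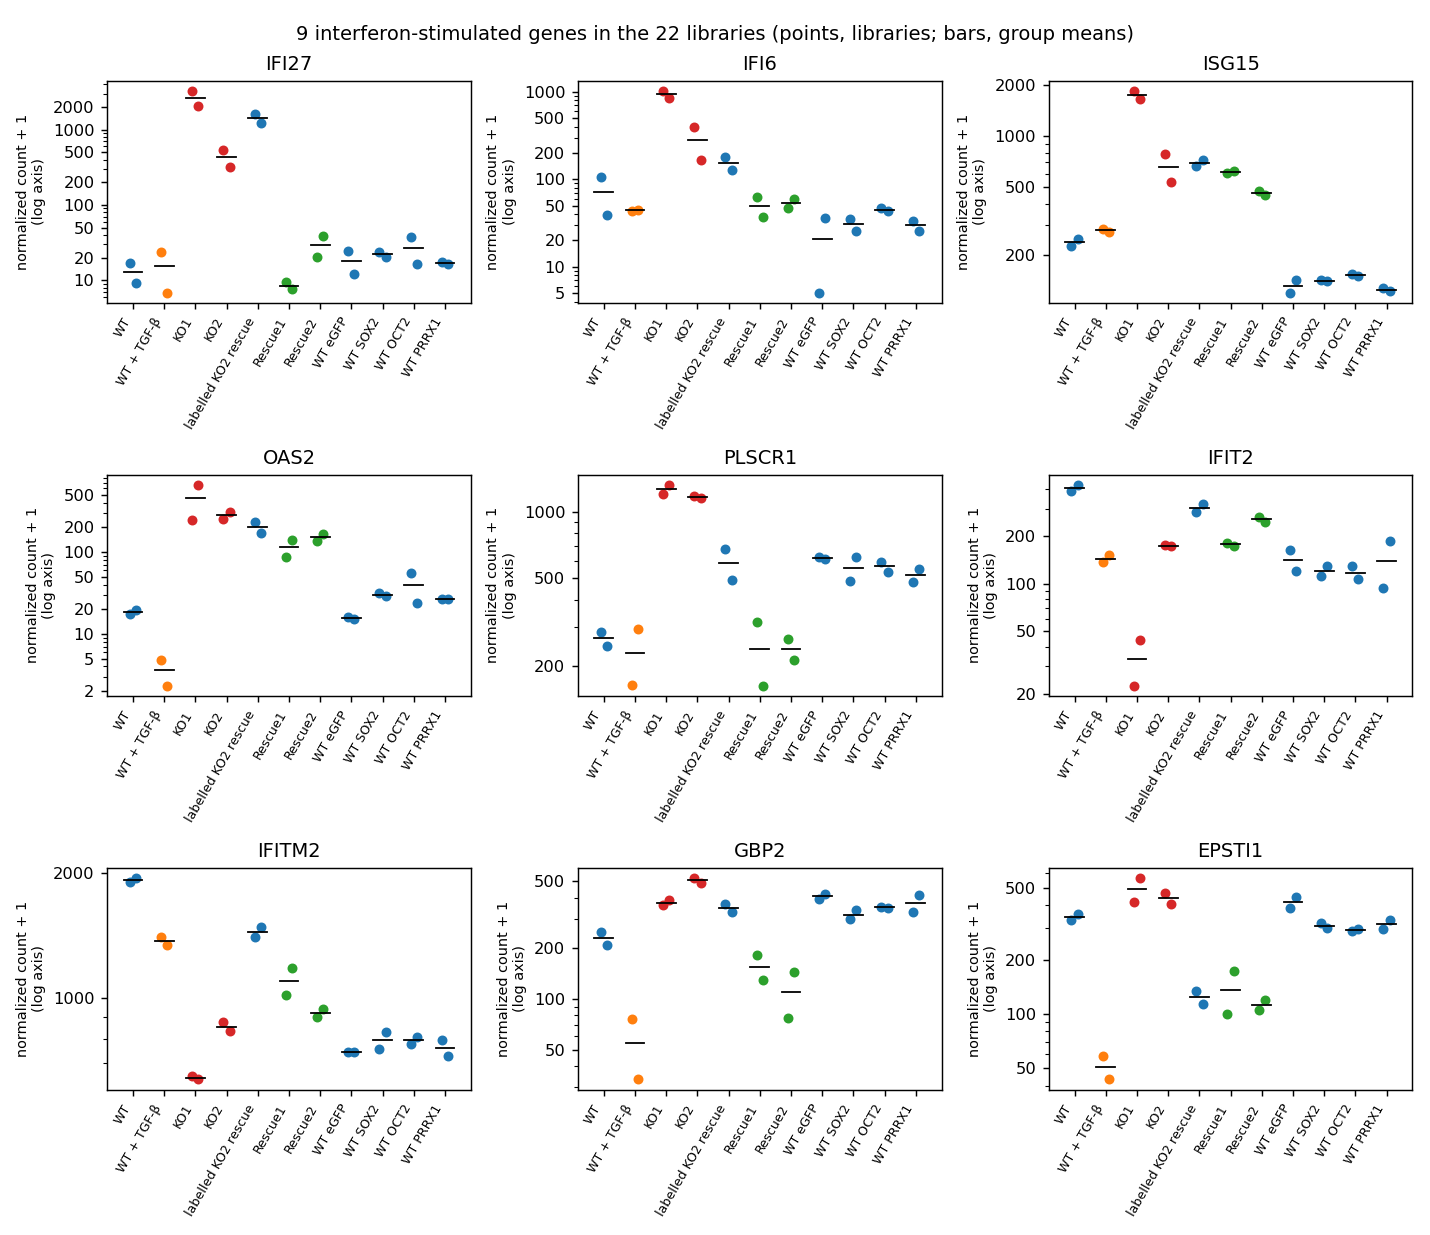
Normalized counts plus 1 (log axis) of IFI27, IFI6, ISG15, OAS2, PLSCR1, IFIT2, IFITM2, GBP2 and EPSTI1 in each library by group, each point 1 library and each black line the group mean, with KO1 and KO2 in red, rescue in green, TGF-β in orange and the other groups in blue. IFI27 is between 321 and 3259.8 in the KO libraries and at 38.0 or less in rescue and WT, and IFIT2 is lowest in KO1.

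MX1 and MX2 are dynamin-like GTPases that trap viral ribonucleoproteins and capsids, and they are neighbours on chromosome 21, at 41420020-41470071 and 41361999-41409393 on the plus strand. MX1 had 243 and 84.05 normalized counts in KO1, 80.1 and 59.4 in KO2, 29.5 and 23.7 in WT and 21.4 and 29.8 in TGF-β cultures. For MX1, the labelled KO2 rescue had 55.7 and 61.4, Rescue1 26.9 and 43.6 and Rescue2 48.02 and 26.4. MX1 was at 2.38 and 33.3 in WT eGFP, 28.1 and 22.7 in WT SOX2, 13.8 and 31.2 in WT OCT2 and 39.5 and 43.3 in WT PRRX1. KO1 replicate 1 was highest at nearly 3 times KO1 replicate 2, and KO2 was above both WT libraries. MX1 changed by 2.39 (SE 0.82, adjusted p = 0.0306) in KO1, 1.35 (SE 0.82, adjusted p = 0.253) in KO2 and −1.48 (SE 0.58, adjusted p = 0.0491) in rescue against KO. The call of MX1 was lost in KO1 against WT without either WT library or KO1 replicate 1 (1.63 to 3.15), and in KO against TGF-β without either TGF-β library, KO1 replicate 1 or either KO2 library (1.55 to 2.31), and in rescue against KO without KO1 replicate 1, either KO2 library, either Rescue1 library or either Rescue2 library (−1.86 to −1.10).

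MX2 had 18.7 and 113 normalized counts in KO1, 31.1 and 2.07 in KO2, 0 and 1.098 in WT and 0 and 0 in TGF-β cultures. For MX2, the labelled KO2 rescue had 1.78 and 2.94, Rescue1 8.75 and 11.5 and Rescue2 10.2 and 7.97. MX2 was at 4.51 and 0 in WT eGFP, 0 and 0 in WT SOX2, 3.12 and 0.17 in WT OCT2 and 0 and 2.81 in WT PRRX1. The WT and TGF-β libraries were at or near 0, and KO1 replicate 2 was highest. MX2 changed by 5.03 (SE 1.17, adjusted p = 0.0031) in KO1, a value that depends on the pseudocount since WT was at 0 and 1.10. In KO against TGF-β, where both libraries were at 0, MX2 was at least 13.8-fold higher, taking 3 normalized counts as the floor. The bound was 5.88-fold without KO1 replicate 2 and 21.6-fold without KO1 replicate 1.

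The guanylate-binding proteins GBP1 and GBP2 are large GTPases that coat vacuoles of pathogens, and both respond strongly to type II interferon. GBP2 is at chr1:89106132-89150456 on the minus strand. GBP2 had 361 and 384 normalized counts in KO1, 522 and 490.1 in KO2, 251 and 209 in WT and 75.2 and 32.3 in TGF-β cultures. For GBP2, the labelled KO2 rescue had 364 and 328, Rescue1 181 and 128 and Rescue2 76.6 and 143. GBP2 was at 392 and 422 in WT eGFP, 297 and 335 in WT SOX2, 353 and 345 in WT OCT2 and 328 and 412 in WT PRRX1. KO2 was highest, TGF-β and rescue lowest, and the transduced WT lines stood above WT. GBP2 changed by 0.70 (SE 0.33, adjusted p = 0.11) in KO1, which passed neither limit. It changed by 1.14 (SE 0.33, adjusted p = 0.0165) in KO2, −2.19 (SE 0.33, adjusted p = 0.000269) with TGF-β and −1.77 (SE 0.23, adjusted p = 1.76e-05) in rescue against KO. The call of GBP2 was lost in KO2 against WT without WT replicate 2 or either KO2 library (1.01 to 1.27).

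GBP1 had 49.6 and 37.5 normalized counts in KO1, 79.8 and 46.9 in KO2, 71.00 and 73.99 in WT and 133 and 139 in TGF-β cultures. For GBP1, the labelled KO2 rescue had 147 and 191, Rescue1 104 and 73.1 and Rescue2 70.7 and 139. GBP1 was at 213 and 178 in WT eGFP, 111 and 101 in WT SOX2, 109 and 144 in WT OCT2 and 150.01 and 155 in WT PRRX1. The lowest 3 values of GBP1 lay in KO1 and KO2, and it was highest in WT eGFP and the labelled KO2 rescue. Its changes were −0.74 (SE 0.34, adjusted p = 0.0994) in KO1 and 0.90 (SE 0.34, adjusted p = 0.0851) with TGF-β, neither past both limits. It was −1.39 (SE 0.29, adjusted p = 0.00156) in KO against TGF-β, 1.44 (SE 0.34, adjusted p = 0.0127) in the labelled KO2 rescue against KO2 and 1.42 (SE 0.34, adjusted p = 0.0058) in WT eGFP against WT. The call of GBP1 was lost in rescue against WT eGFP without Rescue1 replicate 2, Rescue2 replicate 1 or WT eGFP replicate 1 (−1.30 to −0.82), and in the labelled KO2 rescue against KO2 without KO2 replicate 2 or labelled KO2 rescue replicate 2 (1.06 to 1.82), and in WT eGFP against WT without WT eGFP replicate 1 (1.29 to 1.54).

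PARP9, PARP14 and DTX3L form a group of ADP-ribosyltransferases and a ubiquitin ligase partner. PARP14 had 367 and 610.5 normalized counts in KO1, 384 and 363 in KO2, 523 and 270.02 in WT and 172 and 313 in TGF-β cultures. For PARP14, the labelled KO2 rescue had 157 and 406, Rescue1 121 and 46.9 and Rescue2 63.1 and 60.4. PARP14 was at 101 and 146 in WT eGFP, 63.8 and 441 in WT SOX2, 81.1 and 446 in WT OCT2 and 488 and 450.1 in WT PRRX1. Rescue was lower than KO without overlap, while the duplicates of WT SOX2 and of WT OCT2 lay far apart. PARP14 changed by −2.61 (SE 0.60, adjusted p = 0.00228) in rescue against KO and by 0.33 (SE 0.84, adjusted p = 0.794) in KO1. PARP9 ranged from 381 to 865 and passed no test, and DTX3L was at 0 to 6.42.

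Of the genes of nucleotide and RNA metabolism, CMPK2 is a mitochondrial nucleotide kinase beside RSAD2, which encodes viperin. CMPK2 had 60.4 and 115 normalized counts in KO1, 34.7 and 22.2 in KO2, 13.96 and 11.4 in WT and 3.44 and 5.41 in TGF-β cultures. For CMPK2, the labelled KO2 rescue had 28.3 and 66.9, Rescue1 12.5 and 32.9 and Rescue2 18.8 and 14.8. CMPK2 was at 0 and 0 in WT eGFP, 1.54 and 4.89 in WT SOX2, 5.26 and 1.601 in WT OCT2 and 0.84 and 3.14 in WT PRRX1. KO1 replicate 2 was highest, and CMPK2 was at 0 in both WT eGFP libraries. It changed by 2.63 (SE 0.72, adjusted p = 0.00868) in KO1, 1.08 (SE 0.72, adjusted p = 0.301) in KO2 and −1.34 (SE 0.51, adjusted p = 0.0423) in rescue against KO. Against WT eGFP, rescue was at least 6.58-fold higher, and WT eGFP was at least 4.22-fold lower than WT. The call of CMPK2 was lost in KO1 against WT without KO1 replicate 2 (2.17 to 3.09), and in rescue against KO without KO1 replicate 2, either KO2 library, Rescue1 replicate 1 or either Rescue2 library (−1.67 to −1.01). RSAD2 was at 0 to 2.12 over the 22 libraries.

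ISG20 is an exonuclease of single-stranded RNA. ISG20 had 91.4 and 123 normalized counts in KO1, 57.8 and 52.3 in KO2, 45.1 and 24.6 in WT and 6.35 and 14.7 in TGF-β cultures. For ISG20, the labelled KO2 rescue had 35.6 and 33.9, Rescue1 61.03 and 55.7 and Rescue2 19.7 and 53.4. ISG20 was at 35.2 and 51.2 in WT eGFP, 20.6 and 30.98 in WT SOX2, 41.5 and 43.4 in WT OCT2 and 42.9 and 35.04 in WT PRRX1. KO1 was highest and TGF-β lowest, without overlap with WT in either case. ISG20 changed by 1.64 (SE 0.50, adjusted p = 0.0177) in KO1, 0.70 (SE 0.50, adjusted p = 0.343) in KO2 and −1.68 (SE 0.50, adjusted p = 0.0317) with TGF-β. The call of ISG20 was lost in KO1 against WT without WT replicate 2 or KO1 replicate 2 (1.21 to 2.06), and with TGF-β against WT without WT replicate 1 or TGF-β replicate 1 (−2.23 to −1.13). SAMD9 and SAMD9L, which restrict poxviruses, ranged from 0 to 159 and from 41.2 to 363. SAMD9L was higher in rescue than in WT eGFP, by 1.56 (SE 0.38, adjusted p = 0.00613), and that call was lost in rescue against WT eGFP without WT eGFP replicate 1 (0.89 to 2.23).

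IFI16, a sensor of nuclear DNA, SP100, a component of PML bodies, and TRIM22, a nuclear ubiquitin ligase, belong to the nucleus. TRIM22 had 515 and 703 normalized counts in KO1, 779.5 and 961 in KO2, 402 and 453 in WT and 804 and 998 in TGF-β cultures. For TRIM22, the labelled KO2 rescue had 614 and 706, Rescue1 489.6 and 515 and Rescue2 654 and 533. TRIM22 was at 342 and 388 in WT eGFP, 333 and 273 in WT SOX2, 371 and 285 in WT OCT2 and 339 and 408 in WT PRRX1. TGF-β and KO2 were highest, WT and the transduced WT lines lowest. TRIM22 changed by 0.50 (SE 0.19, adjusted p = 0.0552) in KO1, 1.02 (SE 0.19, adjusted p = 0.000915) in KO2 and 1.07 (SE 0.19, adjusted p = 0.00123) with TGF-β, where it was the only member to rise. The call of TRIM22 was lost in KO2 against WT without WT replicate 1 or KO2 replicate 2 (0.87 to 1.17), and with TGF-β against WT without WT replicate 1 or TGF-β replicate 2 (0.91 to 1.22). IFI16 had 649 and 686 with TGF-β against 1379 and 1443 in WT, a change of −1.08 (SE 0.11, adjusted p = 6.97e-06). SP100 ranged from 537 to 1210.4 and passed no test.

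Of 8 other interferon-induced proteins 6 were lower in rescue against KO (75%, against 11.9% of all genes), and 4 were higher in KO1 (50%, against 12.0%). EPSTI1 is at chr13:42886388-42992271 on the minus strand. EPSTI1 had 416 and 565 normalized counts in KO1, 464 and 407 in KO2, 332 and 356 in WT and 57.6 and 42.4 in TGF-β cultures. For EPSTI1, the labelled KO2 rescue had 132 and 113, Rescue1 98.8 and 171 and Rescue2 104 and 118. EPSTI1 was at 385 and 441 in WT eGFP, 317 and 297 in WT SOX2, 285 and 293 in WT OCT2 and 294 and 331 in WT PRRX1. KO and WT eGFP were highest, TGF-β lowest, and the rescue and labelled KO2 rescue libraries lay between them, without overlap with KO. EPSTI1 changed by 0.49 (SE 0.24, adjusted p = 0.117) in KO1, −2.77 (SE 0.24, adjusted p = 1.66e-06) with TGF-β and −1.93 (SE 0.17, adjusted p = 2.44e-07) in rescue against KO. It was −1.82 (SE 0.24, adjusted p = 0.000131) in the labelled KO2 rescue against KO2 and −1.77 (SE 0.21, adjusted p = 1.32e-05) in rescue against WT eGFP.

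XAF1 binds the apoptosis inhibitor XIAP. XAF1 had 12.9 and 23.8 normalized counts in KO1, 5.17 and 0 in KO2, 31.8 and 26.6 in WT and 58.9 and 79.3 in TGF-β cultures. For XAF1, the labelled KO2 rescue had 2.67 and 4.59, Rescue1 0 and 0 and Rescue2 0.59 and 0. XAF1 was at 5.26 and 32.8 in WT eGFP, 39.1 and 3.64 in WT SOX2, 16.97 and 11.8 in WT OCT2 and 37.04 and 34.9 in WT PRRX1. TGF-β was highest, KO2 and the rescue lines lay at or near 0, and the duplicates of WT eGFP and WT SOX2 were far apart. XAF1 changed by −0.70 (SE 1.02, adjusted p = 0.635) in KO1 and −3.60 (SE 1.02, adjusted p = 0.015) in KO2, the second of which depends on the pseudocount as KO2 was at 5.17 and 0. It changed by −2.60 (SE 0.72, adjusted p = 0.00856) in rescue against KO and −3.70 (SE 0.89, adjusted p = 0.00534) against WT eGFP, with 3 of the 4 rescue libraries at 0, so that these values too depend on the pseudocount. The call of XAF1 was lost in KO2 against WT without either WT library or KO2 replicate 2 (−4.91 to −2.29), and in KO against TGF-β without TGF-β replicate 2 (−4.01 to −2.70), and in rescue against WT eGFP without WT eGFP replicate 2 (−4.91 to −2.48).

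IFI44 and IFI44L are neighbouring relatives with a GTP-binding domain. IFI44 had 183 and 183 normalized counts in KO1, 94.7 and 49.5 in KO2, 42.4 and 26.96 in WT and 38.5 and 82.01 in TGF-β cultures. For IFI44, the labelled KO2 rescue had 80.7 and 71.5, Rescue1 46.97 and 42.2 and Rescue2 10.3 and 16.1. IFI44 was at 42.3 and 8.08 in WT eGFP, 30.9 and 15.8 in WT SOX2, 31.8 and 21.2 in WT OCT2 and 23.4 and 14.3 in WT PRRX1. KO1 was highest in both libraries. IFI44 changed by 2.40 (SE 0.65, adjusted p = 0.00834) in KO1, 0.997 (SE 0.65, adjusted p = 0.292) in KO2 and −2.17 (SE 0.46, adjusted p = 0.00128) in rescue against KO. The call of IFI44 was lost in KO1 against WT without WT replicate 2 (2.08 to 2.72).

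IFI44L had 25.5 and 93.9 normalized counts in KO1, 36.7 and 52.7 in KO2, 48.5 and 80.1 in WT and 71.9 and 58.3 in TGF-β cultures. For IFI44L, the labelled KO2 rescue had 57.9 and 32.6, Rescue1 11.9 and 10.8 and Rescue2 11.3 and 18.3. IFI44L was at 46.4 and 42.1 in WT eGFP, 44.6 and 44.4 in WT SOX2, 56.4 and 53.3 in WT OCT2 and 37.8 and 41.2 in WT PRRX1. The rescue libraries were lowest and did not overlap any other group, and the KO1 duplicates were over 3-fold apart. IFI44L changed by −0.34 (SE 0.52, adjusted p = 0.656) in KO1, −1.78 (SE 0.37, adjusted p = 0.00111) in rescue against KO and −1.71 (SE 0.45, adjusted p = 0.0102) in rescue against WT eGFP. The call of IFI44L was lost in rescue against WT eGFP without WT eGFP replicate 1 (−1.88 to −1.55).

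LGALS3BP is a secreted glycoprotein that binds galectins. LGALS3BP had 714 and 770.3 normalized counts in KO1, 471 and 244 in KO2, 296 and 439 in WT and 467 and 543 in TGF-β cultures. For LGALS3BP, the labelled KO2 rescue had 431 and 414, Rescue1 229.6 and 293 and Rescue2 316 and 422. LGALS3BP was at 245 and 212 in WT eGFP, 259 and 254 in WT SOX2, 246 and 300.2 in WT OCT2 and 285 and 431 in WT PRRX1. KO1 was highest, and KO2 overlapped WT. LGALS3BP rose by 1.04 (SE 0.28, adjusted p = 0.00916) in KO1, with KO2 against WT at −0.09 (SE 0.28, adjusted p = 0.869) and KO2 against KO1 at −1.13 (SE 0.28, adjusted p = 0.0143). The call of LGALS3BP was lost in KO1 against WT without WT replicate 1 or KO1 replicate 2 (0.75 to 1.32), and in KO2 against KO1 without KO1 replicate 2 or KO2 replicate 2 (−1.60 to −0.65). IFI35, a leucine zipper protein, had 265 and 221 with TGF-β and 201 and 221 in WT eGFP against 407 and 584 in WT, changes of −1.01 (SE 0.24, adjusted p = 0.00898) and −1.21 (SE 0.24, adjusted p = 0.00172). The call of IFI35 was lost with TGF-β against WT without WT replicate 2 or TGF-β replicate 2 (−1.27 to −0.75). In WT eGFP against WT it was lost without WT replicate 2 (−1.46 to −0.95).

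Over all 13 comparisons 28 members were called at least once and 11 never, namely ADAR, DDX60, EIF2AK2, HERC5, IFIT3, IFITM1, IFITM3, PARP9, SAMD9, SP100 and UBE2L6. The share of all genes called at least once was not counted, so the 28 cannot be set against it. Per kilobase of the canonical transcript, the order of levels differed between groups. In WT, IFITM2 was first at 1908 ± 32.7 (SD, n = 2), followed by ADAR at 915 ± 115 and IFI16 at 489 ± 15.5. In KO1, IFI27 was first at 3672 ± 1165 and ISG15 second at 2726 ± 208, which did not differ beyond their spread. In KO2, ISG15 was first at 1034 ± 267, within its spread of ADAR and IFITM2.

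Of 27 listed factors of interferon signalling, 25 were tested, and 7 were higher in KO1 (28%, against 12.0% of all genes) and 3 lower (12%, near the 13.1% of all genes). In KO2 2 were higher and 2 lower, 8% each, near the 9.02% and 7.29% of all genes. In rescue against KO 6 were lower (24%, against 11.9%) and 2 higher (8%, against 11.3%). STAT2 was at 511 and 485 in WT, 1468 and 1542 in KO1 and 1017 and 791 in KO2, rising by 1.59 (SE 0.20, adjusted p = 1.42e-05) in KO1 and changing by 0.85 (SE 0.20, adjusted p = 0.0047) in KO2. IRF9 was at 757 and 669.8 in WT, 1178 and 1738 in KO1 and 1122 and 832 in KO2, with a change of 1.01 (SE 0.25, adjusted p = 0.0043) in KO1. In rescue against KO, STAT2 and IRF9 were lower, at −1.58 (SE 0.14, adjusted p = 3.31e-07) and −1.50 (SE 0.17, adjusted p = 4.8e-06).

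IRF1, a transcription factor that is itself induced by interferon, was called lower in KO2 and higher in rescue against KO. It was at 986 and 1106 in WT, 714 and 529.6 in KO1 and 534 and 420.4 in KO2, changes of −0.76 (SE 0.15, adjusted p = 0.00104) and −1.14 (SE 0.15, adjusted p = 4.5e-05), and was 1.11 (SE 0.11, adjusted p = 8.27e-07) in rescue against KO. IRF7, the factor that amplifies type I interferon, was at 6.33 and 10.9 in WT and 26.00 and 30.3 in KO1. IRF7 was low, at 0 in 3 of the 22 libraries and at 30.3 at most. The factors called higher in both clones were SOCS1, an inhibitor of JAK kinases, and TBK1, the kinase of IRF3. SOCS1 was at 31.8 and 26.6 in WT, 423 and 399 in KO1 and 248 and 218 in KO2, changes of 3.78 (SE 0.19, adjusted p = 9.15e-10) and 2.96 (SE 0.19, adjusted p = 2.53e-08). TBK1 was under the floor of 3 in WT, at 0.71 and 1.84, with 11.5 and 21.3 in KO1 and 15.1 and 4.83 in KO2.

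Of 8 interferon genes listed, 5 had a row and only IFNE passed the filter, while IFNA1, IFNK, IFNL2 and IFNL3 were at 0 in all 22 libraries. The RNA levels of IFNB1, IFNG and IFNL1 are not analysed here, so these values do not cover them. IFNE was called lower in KO against TGF-β (log2 change −2.88, SE 0.70, adjusted p = 0.00453) and in rescue against WT eGFP (−2.17, SE 0.70, adjusted p = 0.0297), and in no other comparison. Of 9 genes that respond mainly to type II interferon 4 were tested, while IDO1, CXCL9, CXCL11 and HLA-DRA were at 0 in KO1 and WT. CD74, the invariant chain of MHC class II, was at 1215 and 981 in WT, 134 and 204 in KO1, 47.2 and 66.01 in KO2 and 447 and 488 in WT eGFP, and at 0 to 61.8 in rescue. It was lower in KO1, KO2 and in rescue against WT eGFP, with changes of −2.71 (SE 0.27, adjusted p = 1.37e-06), −4.26 (SE 0.27, adjusted p = 1.71e-08) and −6.08 (SE 0.23, adjusted p = 1.26e-10). CD74 was also lower in rescue against KO (−3.82, adjusted p = 5.69e-10) and in WT eGFP against WT (−1.22, adjusted p = 0.00358). It was lower in KO2 against KO1 (−1.55, adjusted p = 0.00119) and in KO against TGF-β (−4.44, adjusted p = 1.22e-09). Rescue2 was above Rescue1 (5.58, adjusted p = 2.82e-08), where CD74 was at 0, so that changes with Rescue1 depend on the pseudocount. GBP5, a guanylate-binding GTPase, was higher in KO1, at 2.07 (SE 0.61, adjusted p = 0.0134), and lower in rescue against KO, at −1.21 (SE 0.43, adjusted p = 0.0321), and its change in KO2, 1.16 (SE 0.61, adjusted p = 0.178), did not pass. In KO1 that is 1 of 4 higher and 1 of 4 lower (25.0% each, against 12.0% and 13.1% of all genes). In KO2 none was higher, against 9.02% of all genes, and 1 was lower (25.0%, against 7.29%).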

How the data were processed

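RNA from 22 libraries (TruSeq Stranded mRNA, NovaSeq) was quantified by the authors with Salmon 1.9.0 on Ensembl release 94 and normalized with DESeq2 1.26.0. The deposited values are log2 values after a variance-stabilizing transformation, from 11.32 to 21.28, which shrink low counts. The transformation was inverted to normalized counts. Symbols were matched for 33878 of 36859 genes with GENCODE 44, and 0 columns were left unmapped. Genes had to reach 10 normalized counts in 2 or more libraries. Their log2(normalized count + 1) was fitted with limma 3.58.1 (R 4.3.3, variance trend), all 22 libraries together and a mean per group, with Benjamini-Hochberg adjustment per comparison. A gene was called at an adjusted p below 0.05 and an absolute log2 change above 1. A fold against libraries at 0 used a floor of 3. Groups came from the sample labels, under which the study's supplementary headings for KO1 and KO2 are exchanged.

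The members, lists and tests were chosen with earlier results of these data known. Members with values in every library are those called in KO1 or KO2 against WT, those among the 3 largest changes in each direction of another comparison, and the ISG15 and OAS genes. On simulated data for KO1 against WT, 189 of 200 genes changed by a log2 of 2 were recovered (94.5%). Of the 14585 genes simulated, 7 that were left unchanged were called. The changed genes were drawn from those above a minimum WT mean. IFI27, OAS2, OASL, CMPK2 and MX2 lay below that mean in WT, so the recovery does not cover them. Every group was otherwise given the WT means, and the spread was set rather than taken from the duplicates. Counts behind the log2 values were not used as such, so no count model was fitted, and depth is known only approximately. The alternatives were other scalings, filters, pseudocounts, the deposited scale, fits of the compared groups alone, a replicate block and each library left out. Promoter windows were from RefSeq (GRCh38.p14). The values of 1 listed signalling factor are not reported here.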

Additional observations from a re-analysis of the deposited data

Results flagged for a closer look

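The knockout clones differed from each other in 6 members by the direct test of KO2 against KO1 with limma, each adjusted over all genes. The log2 change was −2.64 for IFI27 (adjusted p = 0.00768), −2.59 for OASL (adjusted p = 0.0113), −2.35 for OAS1 (adjusted p = 0.0136), −1.42 for ISG15 (adjusted p = 2.33e-05) and −1.13 for LGALS3BP (adjusted p = 0.0143), all lower in KO2. IFIT2 was higher in KO2, by 2.47 (adjusted p = 0.000103). Both KO2 libraries were below both KO1 libraries for the 5 lower genes and above both for IFIT2. ISG15 and IFIT2 passed with each library left out in turn, and IFI27 and OASL did not pass without KO2 replicate 2, OAS1 without KO1 replicate 2 or either KO2 library, and LGALS3BP without replicate 2 of either clone. In a fit of just the KO1 and KO2 libraries none of the 6 passed, and none passed the fold on the deposited log2 scale. Each clone was a single clone, so that clone and genotype cannot be told apart.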

How the results depend on the processing

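No call of a member in a comparison changed its direction under any alternative, over 97 calls. On the deposited log2 scale, which compresses low values, the members called were 1 in KO1 against WT and 0 in KO2 against WT, KO2 against KO1, TGF-β against WT, KO against TGF-β, rescue against KO, rescue against WT eGFP, WT eGFP against WT and the labelled KO2 rescue against KO2, with 0 higher and 0 lower in both clones. By adjusted p alone that scale gave 21, 16, 16, 9, 22, 25, 16, 10 and 7 members in those comparisons, against 19, 16, 11, 11, 21, 23, 14, 10 and 4 on the scale used here. When the fit held just the groups compared, 10 were called in KO1, 0 in KO2 against KO1, 0 with TGF-β, 1 in the labelled KO2 rescue and 4 in WT eGFP against WT. Rescue against KO2 alone gave 8. With each library left out in turn the counts were 13 to 16 in KO1, 6 to 9 in KO2, 2 to 7 in KO2 against KO1, 6 to 7 with TGF-β, 16 to 20 in KO against TGF-β, 14 to 16 in rescue against KO, 0 to 1 in Rescue2 against Rescue1 (1 without Rescue1 replicate 2), 7 to 13 in rescue against WT eGFP, 1 to 2 in the labelled KO2 rescue, 6 to 8 in WT eGFP against WT, 0 to 1 in PRRX1, 0 in SOX2 and OCT2, 4 to 7 higher in both clones and 1 to 2 lower in both (1 without WT replicate 2). Same-numbered libraries did not deviate together (r −0.082 to 0.047 over 55 pairs of groups), and with a replicate block the counts were 17, 9, 6, 8, 17, 14, 0, 12, 8 and 4 in the order of the comparisons above, with Rescue2 against Rescue1 after rescue against KO, and 4 higher and 2 lower in both clones. The cause of these differences was not tested.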
